A study of Mus musculus with 12 samples.

Results

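The genes of the cytosolic ribosomal proteins were followed through poly(A) RNA of adult mouse whole cortex in 3 Tet1 genotypes, KO, HxD and WT, with 4 libraries each. They were taken by symbol: every Rpl or Rps symbol followed by a number, plus Rplp0, Rplp1, Rplp2 and Rpsa, without the S6 kinases, pseudogene symbols or symbols on several rows. This gave 89 of 21738 distinct symbols. They comprise 43 proteins of the large subunit, 31 of the small subunit, 3 of the stalk, 11 paralogs or retrocopies, and Rps19bp1, which encodes a binding partner of Rps19 rather than a ribosomal protein. Tet1 encodes a dioxygenase that oxidises 5-methylcytosine. KO and HxD are the labels' names for the mutants, and HxD is also how the iron-binding motif of this enzyme family is written. The study's title sets catalytic beside non-catalytic functions of the enzyme. Strain, sex, exact age and whether each library is its own animal are not given in the labels. A p-value here is therefore judged only on the spread among the libraries, part of which may be technical.

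Ribosomal proteins form a small subunit, which reads the mRNA, and a large subunit, which joins amino acids, around ribosomal RNA. The stalk proteins of the large subunit recruit the GTPases of translation. The genes are active in every cell, and their mRNAs begin with a run of pyrimidines, the terminal oligopyrimidine tract, through which mTORC1 and the RNA-binding protein LARP1 adjust their translation together. Many processed pseudogenes resemble these short mRNAs, so reads can be shared between near-identical copies and the value of any single member is uncertain to that extent.

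The tract at the start site is a sequence feature that the choice by symbol did not use. RefSeq promoter entries (GRCm38.p6) were found for 68 of the 89 members, in 80 windows. The 30 bases around each start, 15 before it and 15 from it on, are shown for 8 members: Rpl28, Rps6, Rps9, Rplp2 and Rpl38, which had 550 or more estimated counts in each library, and Rps10, Rps15a and Rpl15, which the table lists at or near 0 or far below the others. Capitals mark the longest run of C and T.
Rpl28, chr7:4792950-4792979, plus strand: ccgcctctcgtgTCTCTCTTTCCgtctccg
Rps6, chr4:86857353-86857382, minus strand: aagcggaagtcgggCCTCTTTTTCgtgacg
Rps9, chr7:3704026-3704055, plus strand: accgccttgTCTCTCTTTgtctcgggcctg
Rplp2, chr7:141447636-141447665, plus strand: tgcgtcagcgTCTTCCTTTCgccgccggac
Rpl38, chr11:114668565-114668594, plus strand: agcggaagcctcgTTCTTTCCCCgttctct
Rps10, chr17:27635230-27635259, minus strand: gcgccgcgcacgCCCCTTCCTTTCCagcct
Rps15a, chr7:118116133-118116162, minus strand: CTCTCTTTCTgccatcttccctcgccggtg
Rpl15, chr14:18270972-18271001, minus strand: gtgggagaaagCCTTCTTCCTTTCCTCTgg
These windows were picked for their sequence after it was seen, so the runs in them, 9 to 17 bases long, are examples and not a count. In Rps15a the marked run lies wholly before the annotated start, and in the other windows shown it spans the start.

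A run of at least 8 pyrimidines on the coding strand lay in 29 of the 80 member windows (36.2%), against 12.0% of all 32851 windows. On the opposite strand it lay in 3 member windows (3.75%), against 13.2% of all windows. The letters CTTTCC, which can lie inside such a run, were found on the coding strand in 13.8% of member windows and in 1.42% of all windows, and on the opposite strand in 0 member windows and in 1.27% of all. Over the whole 300 bases of an entry and on either strand, CCGGAAG, the core of ETS factor sites, lay in 33.8% of member windows and 8.86% of all windows. The Sp1 core GGGCGG lay in 58.8% of member windows and 35.7% of all. These are matches of letters, not measured binding.

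Library totals ran from 5791642 to 9535409 estimated counts in KO, 7767787 to 10347432 in HxD and 8310783 to 10915574 in WT. Levels below are CPM, the estimated counts scaled to library size with TMM factors. Genes of cortical excitatory neurons were present in all 12 libraries, with 12585 to 33826 estimated counts of the vesicular glutamate transporter Slc17a7 and 1112 to 2725 of the cortical transcription factor Tbr1. Tet1 was listed at 0 in all KO and WT libraries and at 1, 0, 63 and 67 counts in HxD 1 to 4, so it cannot check the KO label.

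The 89 genes together held 1.94%, 2.46%, 2.23% and 1.81% of the counts of KO 1 to 4. They held 1.76%, 1.87%, 1.68% and 1.53% in HxD 1 to 4, and 1.62%, 1.42%, 1.95% and 1.97% in WT 1 to 4. KO 2 and KO 3 were the highest of the 12 libraries, while KO 1 and KO 4 lay within the WT range. In bulk tissue, fewer cells of a type and less RNA per cell cannot be told apart.

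A filter on low counts kept 83 of the 89 genes, and the counts below cover those 83. Of the 6 that did not pass, Rpl10l, Rpl39l and Rpl3l, which are paralogs known from testis or muscle, were listed at 0 in all 12 libraries. Rpl22, an RNA-binding protein of the large subunit, was listed at exactly 1 in every library. Rps15a, a small-subunit protein, had 0 to 3 counts. Rps10, which lies near the mRNA entry of the small subunit, was listed at 0 in 11 libraries and at 773 in KO 3. The listed values of Rpl22, Rps15a and Rps10 do not by themselves show that these genes were silent. How these values arose was not tested.

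Per kilobase of transcript, tested genes spanned a wide range of mean levels over all libraries. The stalk protein Rplp1 had 1852 CPM per kilobase, ahead of the small-subunit proteins Rps21 at 1111 and Rps29 at 956 and of the large-subunit proteins Rpl36 at 720.6 and Rpl4 at 653.7. Rps20 stood lowest at 1.26, followed by the paralog Rps4l at 2.17, Rpl15 at 3.99, Rps24 at 7.57 and the retrocopy Rpl32l at 9.36. This order depends on the lengths used, the longest annotated transcripts, with 3706 bases for Rps20. By mean CPM alone Rps20 stood at 4.69, above Rpl32l at 3.73 and Rps4l at 2.05. Medians per kilobase were 279 for the stalk, 238 for the large subunit, 188 for the small subunit and 28.5 for the paralogs and retrocopies. Rps20, Rpl15 and Rps24 are core members and had the lowest levels per kilobase among the tested core genes.

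In KO against WT, no ribosomal protein gene passed edgeR's quasi-likelihood test, although most stood slightly above WT. The question of this comparison is what loss of Tet1 does to the cortex. Of the 83 tested, 0 had an adjusted p below 0.05, where 0.154% of all 11693 tested genes did. DESeq2 and limma-voom also called 0 of them. At an unadjusted p below 0.05, 12 were higher (14.5%, against 4.22% of all tested genes) and 0 lower (5.26%), where 9.48% of all tested genes were so in either direction. The median log2 fold change was 0.28 (quartiles 0.18 and 0.37), against 0.01 over all tested genes. The log2 fold change was above 0 for 79 of 83, against 50.9% of all tested genes. By role the medians were 0.28 for the large subunit, 0.30 for the small subunit, 0.17 for the stalk and 0.23 for paralogs and retrocopies.

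**Figure D1:**
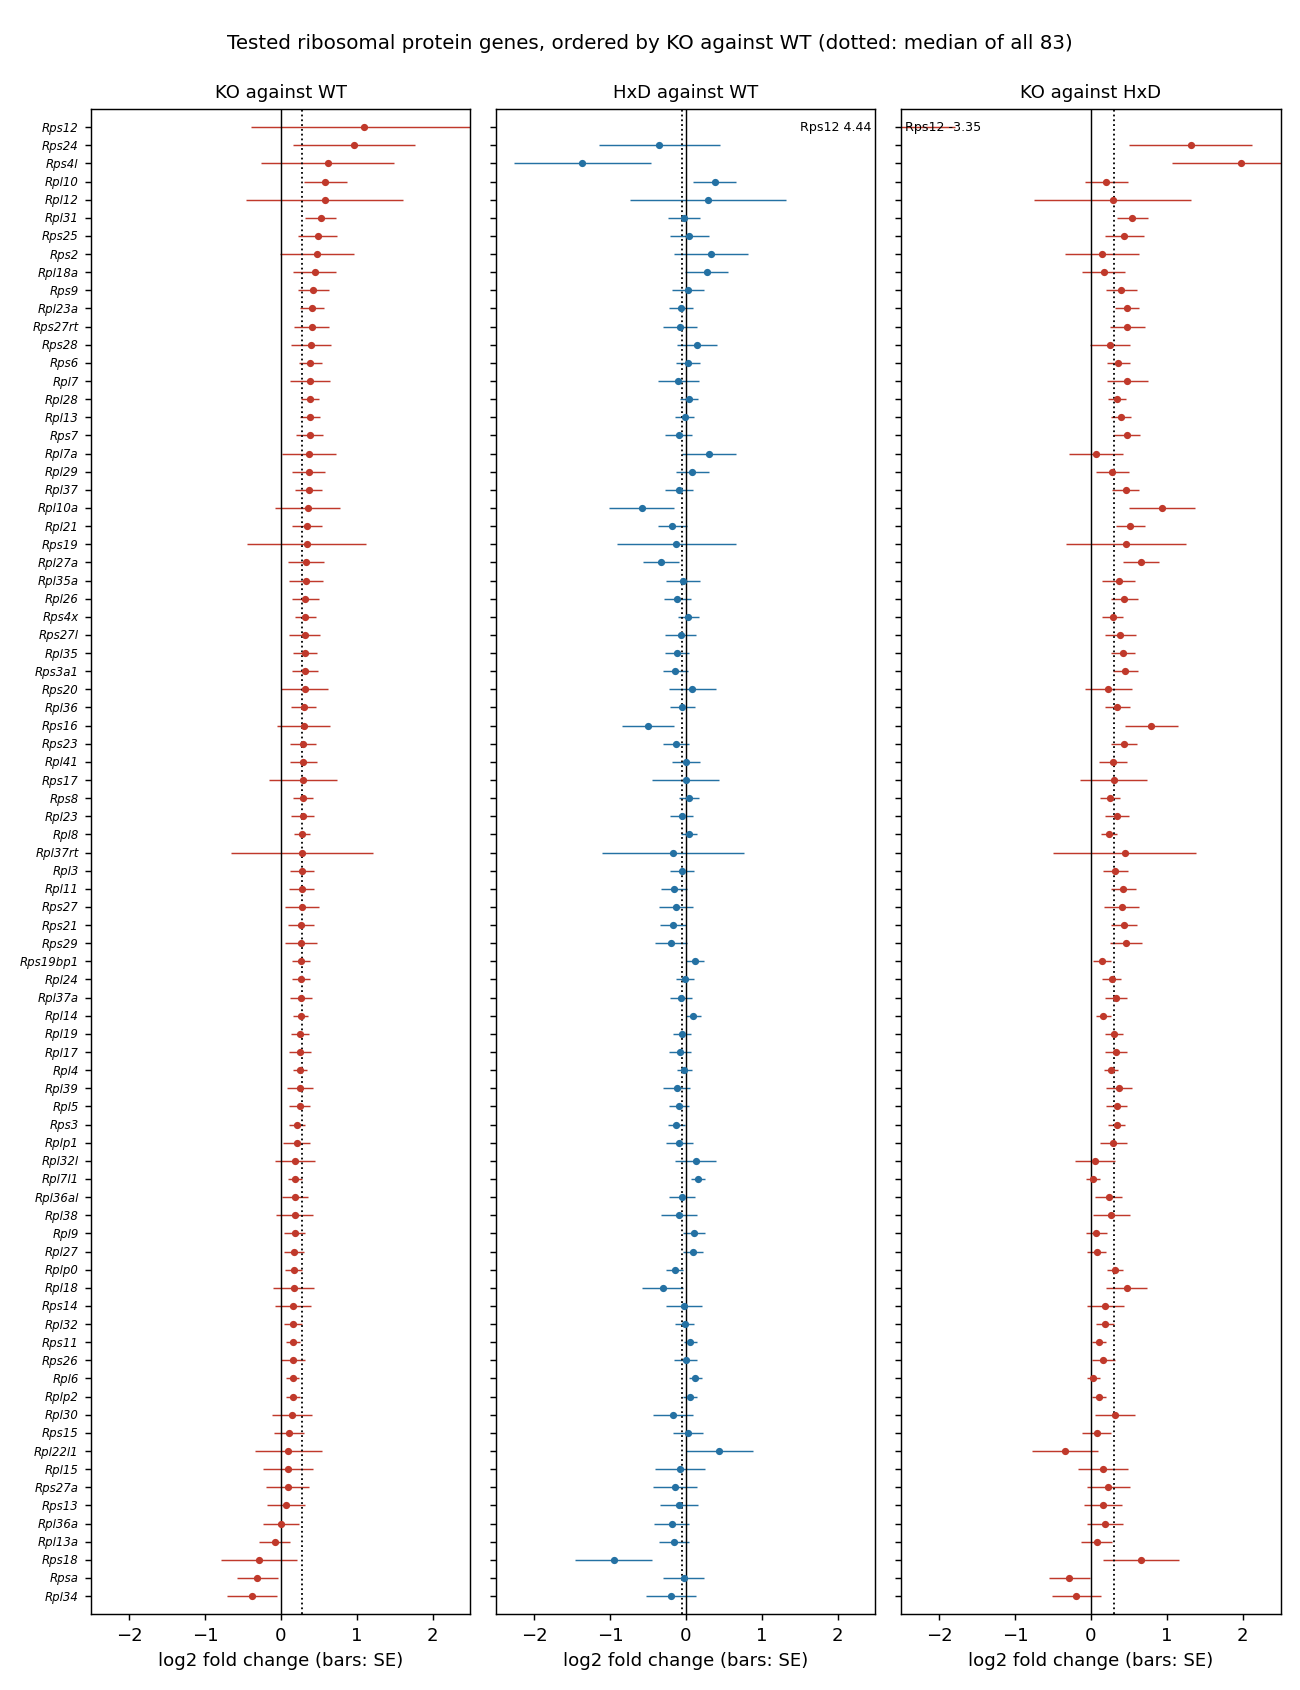
Log2 fold change (x axis, bars are SE) of tested ribosomal protein genes (y axis), ordered by KO against WT, in the 3 comparisons, with 1 of the 83 not drawn; values and bars beyond 2.5 run off the axis, and Rps12 is written in where it does so. Over the 83 genes, values are above 0 for 79 genes in KO against WT and in KO against HxD, and for 29 genes in HxD against WT, and the dotted medians are 0.28, 0.30 and -0.05.

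Rpl28, a large-subunit protein, had the smallest p. It stood at 169.7, 195, 202 and 183 CPM in KO 1 to 4, against 133, 122, 154.5 and 166.5 CPM in WT 1 to 4. All KO libraries lay above all WT libraries, by a log2 fold change of 0.38 ± 0.12 (SE, edgeR adjusted p = 0.318).

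Rpl13, another large-subunit protein, had 477, 652, 532 and 453 CPM in KO 1 to 4, against 382, 355.5, 439 and 447 CPM in WT 1 to 4. The lowest KO library stood just above the highest WT library, and edgeR's adjusted p was 0.377. Groups were fully apart with KO higher for 5 of the 83 genes (6.02%, against 3.25% of all tested genes), Rpl28, Rpl13, Rpl14 and Rps19bp1 among them. With KO lower they were apart for 0 of 83 (3.95% of all tested genes). The leading genes Rpl4, which lines the exit tunnel, and Rpl8, near the catalytic centre, stood at 1.19-fold and 1.21-fold of WT with overlapping libraries (adjusted p = 0.418 and 0.433).

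Only 4 of the tested genes had a log2 fold change below 0 in KO against WT: Rpl34 at -0.39, Rpsa at -0.31, Rps18 at -0.29 and Rpl13a at -0.08. Rpsa, which doubles as the laminin receptor precursor, stood at 624, 219, 373 and 553 CPM in KO 1 to 4, against 508, 446.5, 622 and 616 CPM in WT 1 to 4. KO 2, where the ribosomal genes as a set were highest, was the lowest library of all for Rpsa. Its log2 fold change was -0.09 without KO 2. Rps18, a protein of the small-subunit head, had 213 CPM in WT 3 and 59.2 to 66.0 in the other WT libraries, and without WT 3 its log2 fold change turned to 0.39. Rpl13a turned to 0.01 without WT 3 and to 0.06 without KO 4.

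The count of 12 genes in KO against WT rested on single libraries. It was 3 without WT 2, 3 without KO 3, 4 without KO 2 and 5 without WT 1, but 19 without WT 3 and 25 without KO 4. These counts are out of 83, and the share of all tested genes in each fit was not taken. The median was 0.18 without WT 2, 0.18 without KO 2 and 0.35 without KO 4.

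**Figure D2:**
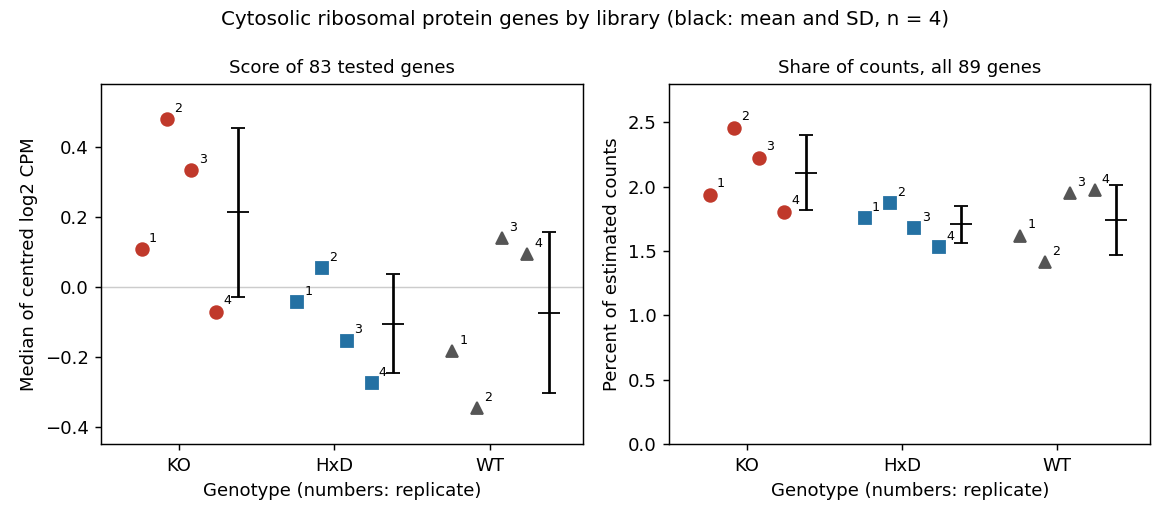
Left: score of the 83 tested genes, the median of log2 CPM after centring each gene on its mean over 12 libraries; right: percent of a library's estimated counts held by the 89 genes. Points are libraries, numbered by replicate, with mean and SD (n = 4) in black; KO 2 and KO 3 lie highest at 2.46% and 2.23%, and KO 4 lies among the HxD and WT libraries in both panels.

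In HxD against WT, the ribosomal protein genes lay at the level of WT libraries. This comparison asks what the HxD allele changes in the cortex. Of the 83 tested genes, 0 passed edgeR (0.898% of all tested genes did), DESeq2 or limma-voom. At an unadjusted p below 0.05, 2 were higher (2.41%, against 1.9% of all tested genes) and 0 lower (2.15%), where 4.05% of all tested genes were so in either direction. The median log2 fold change was -0.05, and 29 of 83 were above 0 (34.9%, against 51.3% of all tested genes). That sign rested on single WT libraries: 48 were above 0 without WT 4, and 46 without WT 3, with medians of 0.02 in each case. No tested ribosomal gene had HxD and WT libraries fully apart, where 1.76% of all tested genes did with HxD higher and 1.72% with HxD lower.

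A single library set the largest of these log2 fold changes. Rps12, a small-subunit protein, held 28, 1067, 9 and 18 estimated counts in HxD 1 to 4, against 0, 12, 27 and 22 in WT 1 to 4. Its log2 fold change of 4.44 ± 1.64 (adjusted p = 0.937) came down to 0.23 without HxD 2.

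Further genes with the smallest p in either direction of HxD against WT had edgeR adjusted p of 0.999. Rps18 had a log2 fold change of -0.95 ± 0.51, and of -0.27 without WT 3. Rpl10, of the large subunit next to the tRNA sites, stood at 0.38 ± 0.28 and Rpl10a at -0.58 ± 0.43. Rpl10a ranged from 23.4 to 40.9 CPM in HxD and from 22.2 to 68.8 CPM in WT. The paralog Rps4l stood at -1.37 ± 0.91, and without WT 1 it stood at 0.50. It had 5, 11, 5 and 7 counts in HxD 1 to 4, against 59, 5, 5 and 6 in WT 1 to 4, so a single WT library set its value.

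In KO against HxD most ribosomal protein genes again stood slightly above 0, without a call. This comparison shares its KO libraries with the first, so the results are not independent. Of the 83 tested, 0 passed edgeR (1.02% of all tested genes did), DESeq2 or limma-voom. At an unadjusted p below 0.05, 27 were higher in KO (32.5%, against 5.67% of all tested genes) and 0 lower (5.94%), where 11.6% of all tested genes were so in either direction. The median log2 fold change was 0.30, against 0.00 over all tested genes, and 79 of 83 were above 0, against 50.2%. The 27 comprised 18 of 42 large-subunit genes, 8 of 29 small-subunit genes and Rplp0, but none of the 8 tested paralogs and retrocopies. Without HxD 4 or without KO 2 the count was 7, and without HxD 3 or without KO 3 it was 11. The share of all tested genes in those fits was not taken.

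Rps3, which lines the mRNA entry and also acts in DNA repair, had the smallest p in KO against HxD. It stood at 496, 524, 478 and 483 CPM in KO 1 to 4, against 379, 419, 365 and 403.5 CPM in HxD 1 to 4. The groups did not overlap, and the log2 fold change was 0.34 ± 0.11 (edgeR adjusted p = 0.272). Without WT 4 in the shared fit its adjusted p was 0.046, the single call of a ribosomal gene in the settings tried. In WT 1 to 4 Rps3 had 366, 390.2, 414 and 537 CPM, so WT libraries overlapped both HxD and KO.

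Rpl27a stood at 120.6, 136, 119 and 96.9 CPM in KO 1 to 4, against 75.2, 92.7, 60.6 and 70.4 CPM in HxD 1 to 4, again without overlap (0.66 ± 0.23 log2, adjusted p = 0.327). Its WT libraries reached 130.4 CPM. Groups were apart with KO higher for 4 of 83 genes (4.82%, against 3.97% of all tested genes): Rps3, Rpl13, Rpl27a and Rps9. With KO lower they were apart for 0 of 83 (3.62% of all tested genes). Rpl23a, a binding site of nascent-chain factors at the tunnel exit, followed at 0.48 ± 0.16 and Rpl4 at 0.27 ± 0.09, with overlapping libraries (adjusted p = 0.28 and 0.309).

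The genes below 0 in KO against HxD were Rps12, Rpl22l1, Rpsa and Rpl34. Rpsa stood at -0.28 on the log2 scale, and at -0.06 without KO 2. Rps12 stood at -3.35 and turned to 0.86 without HxD 2, and Rpl34 stood at -0.19 and turned to 0.02 without KO 3. Rpl22l1, the paralog of Rpl22, stood at 22.4, 65.1, 35.5 and 32.6 CPM in KO 1 to 4, against 57.1, 52.5, 37.5 and 50.3 CPM in HxD 1 to 4. Its groups overlapped and its log2 fold change was -0.34 ± 0.44 (adjusted p = 0.835). It held 131 to 530 counts per library beside the single count listed for Rpl22.

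**Figure D3:**
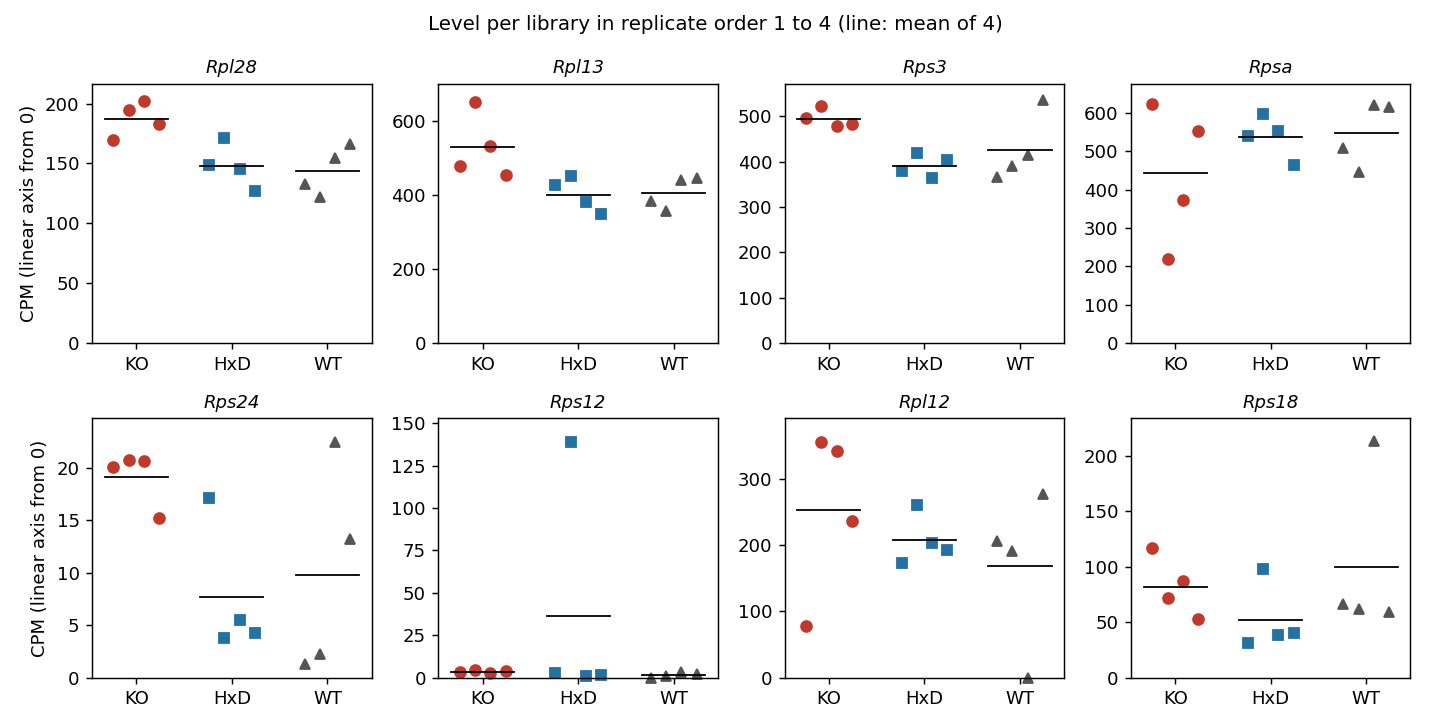
CPM (y axis, linear from 0) of 8 ribosomal protein genes in KO, HxD and WT libraries, each shown in replicate order 1 to 4 with a line at the mean. Rpl28 and Rpl13 have all KO points above all WT points and Rps3 has all KO points above all HxD points, while Rps12, Rpl12, Rps18 and Rpsa are each set by 1 or 2 libraries.

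For several genes a single library stood far from the others of its genotype. Rpl12, a protein at the stalk base, was listed at 0 in WT 3 and had 1815 to 2772 estimated counts in the other WT libraries. In KO it had 451, 2657, 3194 and 1381 counts, and in HxD 1611, 2000, 1735 and 1971. The retrocopy Rpl37rt was listed at 0 in HxD 4 and had 158, 206 and 184 counts in HxD 1 to 3. Rps24, whose RefSeq entry has 7 transcripts, stood at 20.0, 20.7, 20.6 and 15.2 CPM in KO 1 to 4. It had 17.1, 3.77, 5.50 and 4.29 CPM in HxD 1 to 4 and 1.26, 2.29, 22.5 and 13.2 CPM in WT 1 to 4. KO libraries lay close together, while WT libraries spanned the KO range and fell below it, and the log2 fold change of KO against WT was 0.96 ± 0.80 (adjusted p = 0.789).

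The spread between libraries of a genotype had a median SD of 0.275 on the log2 CPM scale over the 83 genes, against 0.335 over all tested genes. It was 0.157 for the 3 stalk genes, 0.264 for the large subunit and 0.354 for the small subunit. Of the 14 genes with an SD above 0.5, 8 were small-subunit genes, 3 large-subunit genes and 3 paralogs or retrocopies. The largest were Rpl12 at 2.62, Rps12 at 1.89, the retrocopy Rpl37rt at 1.61, Rps19 at 1.42 and Rps24 at 1.17. Genes with 1 RefSeq transcript had a median SD of 0.264 (n = 50) and those with 2 or more 0.341 (n = 33).

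Library order was shared by most of the genes. When the score of each library was subtracted, the median SD came down to 0.181, and it was smaller for 66 of the 83 genes, a description since the same genes make the score. Of the 83 genes, 50 had their highest CPM in KO 2 and 16 in KO 3, and 42 had their lowest in WT 2, 10 in WT 1 and 9 in HxD 4. Rpl39 and Rpl41, which encode the shortest proteins of the ribosome, were highest in KO 3 and lowest in WT 2. Rpl41 had 159, 180.5, 186 and 125 CPM in KO 1 to 4, 144, 146, 135.5 and 105 CPM in HxD 1 to 4, and 124, 95.5, 158 and 152 CPM in WT 1 to 4. Rps6, the substrate of the S6 kinases, ranged from 185.5 to 302 CPM in KO, 164.5 to 218.5 CPM in HxD and 160.0 to 210.5 CPM in WT (0.39 ± 0.16 log2 in KO against WT, adjusted p = 0.463).

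Paralogs and retrocopies were set beside their partners within each library, as a share of the partner's counts without correction for transcript length. Rps27l held 5.67% to 9.08% of the counts of Rps27, the retrocopy Rps27rt 7.35% to 10.5% of the same gene, and Rpl32l 0.864% to 1.64% of the counts of Rpl32. Rpl36al held 62.9% to 127% of the counts of Rpl36a, with annotated lengths of 1276 and 483 bases. Per kilobase their mean levels were 73.6 and 237.5 CPM. Rps4l held 0.153% to 2.17% of the counts of its X-linked partner Rps4x. Such pairs can share identical stretches, so part of each ratio may be reads that fit either copy. Neither the identity of the pairs nor the sharing of reads was tested.

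Transcript length was set beside the scores. For each library the slope of centred log2 CPM on log2 transcript length was taken over the tested genes, and a negative slope means that short transcripts stood relatively high. Slopes in KO 1 to 4 were -0.014, -0.098, -0.090 and -0.0009. They were 0.019, -0.117, 0.052 and 0.076 in HxD 1 to 4 and 0.071, 0.093, 0.009 and 0.0001 in WT 1 to 4. The 2 highest scores, 0.48 in KO 2 and 0.33 in KO 3, stood beside steep negative slopes. The lowest, -0.35 in WT 2 and -0.28 in HxD 4, stood beside the steepest positive ones. HxD 2 had the steepest negative slope of all with a score of 0.05.

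**Figure D4:**
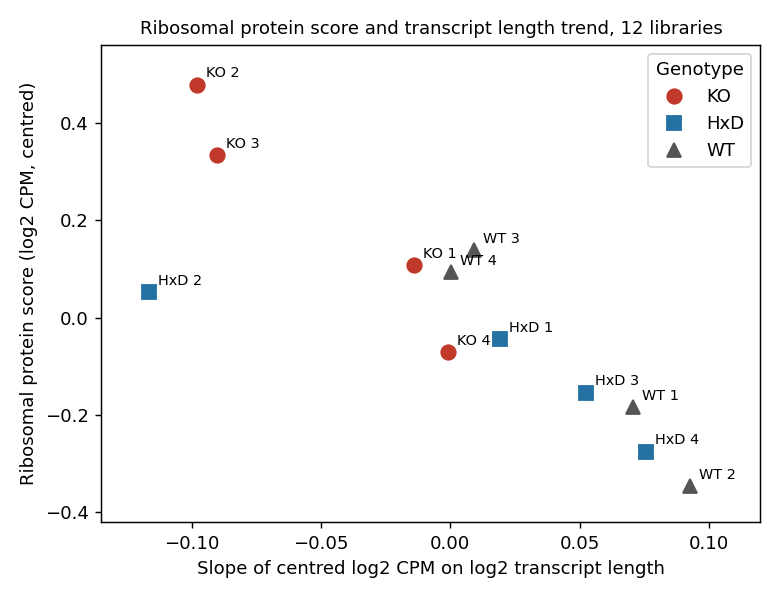
Ribosomal protein score of each library (y axis, log2 CPM centred per gene) against the slope of its centred log2 CPM on log2 transcript length (x axis). KO 2 and KO 3 sit at top left with scores of 0.48 and 0.33, WT 2 and HxD 4 at bottom right with -0.35 and -0.28, and HxD 2 lies below the other libraries of its slope.

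Most ribosomal protein mRNAs are short, and 50 of the 83 had a transcript under 1000 bases. Among the 527 other tested genes of that length, the median log2 fold change was 0.15 in KO against WT, with 72.1% above 0. For the ribosomal genes it was 0.28 both under 1000 bases and, in 33 genes, at 1000 bases or more, where the 11064 other genes had -0.004. These classes use the longest annotated protein-coding transcript, such as 3706 bases for Rps20 and 2989 for Rpl18. Which transcript was expressed was not measured, so the 33 may include genes read as shorter mRNAs. In HxD against WT the other short genes had a median of -0.004. With the length trend of each library removed, the ribosomal median was 0.15 in KO against WT, with 70 of 83 above 0, and 0.14 in KO against HxD, with 67 above 0.

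Markers of other cell types were set beside the same comparisons. Summed CPM of 10 oligodendrocyte markers ran from 3420 to 4060 in KO, 1490 to 4420 in HxD and 2100 to 5000 in WT, and 7 of 9 tested were above 0 in KO against WT. For 10 astrocyte markers it ran from 4260 to 4590 in KO, 3440 to 4240 in HxD and 3370 to 4300 in WT, with 9 of 10 above 0. For 10 striatal markers it ran from 293 to 441 in KO, 264 to 1130 in HxD and 405 to 676 in WT, with 0 of 9 above 0. None of the markers in these 3 lists was at 0 in all libraries. Among the microglial, endothelial and choroid plexus lists, Csf1r, Pecam1, Vwf and Otx2 were listed at 0 in all libraries. In KO against WT, 3 of 8 microglial, 4 of 7 endothelial and 5 of 6 mural markers were above 0. Blood had 0 of 5 above 0, choroid plexus 1 of 3 and meninges 0 of 8. For neurons it was 2 of 9 excitatory and 6 of 10 interneuron markers, where 50.9% of all tested genes were above 0. In KO against HxD, 9 of 9 oligodendrocyte, 8 of 10 astrocyte and 0 of 9 striatal markers were above 0 (50.2% of all). In HxD against WT, 0 of 9, 5 of 10 and 8 of 9 were (51.3%). The part of these cell types in the ribosomal values was not tested.

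Fau and Rack1, ribosomal genes outside the symbol rule, also stood above 0 in KO against WT. Fau, whose product is cleaved to a small-subunit protein, stood at 81.0 ± 18.4 CPM in KO, 47.1 ± 8.65 in HxD and 58.03 ± 8.12 in WT (SD, n = 4 each). Its log2 fold changes were 0.48 ± 0.18 in KO against WT and 0.78 ± 0.18 in KO against HxD (edgeR adjusted p = 0.433 and 0.104). Rack1, a scaffold on the small subunit, stood at 113 ± 27.5 CPM in KO and 79.1 ± 13.1 in WT (adjusted p = 0.445).

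Lists of the wider machinery of translation had medians between 0.03 and 0.12 on the log2 scale in KO against WT, and edgeR called 0 of their genes. For the elongation factors the median was 0.07, 10 of 12 were above 0, and 0 had an unadjusted p below 0.05. Eef1a1, which delivers tRNA, stood at 2629 ± 312.7 CPM in KO and 2397 ± 114 in WT (SD, n = 4 each, adjusted p = 0.747). Initiation factors had a median of 0.03 with 23 of 35 above 0, ribosome assembly factors 0.07 with 37 of 60, nascent chain factors 0.10 with 14 of 20, and mTORC1 signalling genes 0.12 with 13 of 21. At an unadjusted p below 0.05 these lists had 4, 5, 2 and 3 genes, where 9.48% of all tested genes were so in either direction. Mitochondrial ribosomal proteins, encoded in the nucleus like the cytosolic ones, had a median of 0.12 with 53 of 69 above 0. Of the 69, 7 had an unadjusted p below 0.05, beside the same 9.48% of all tested genes. Whether the cytosolic set differs from these lists was not tested.

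RNA polymerase I and snoRNA host lists, and initiation factors in HxD, held the genes that passed edgeR's test. Polr1a, the largest subunit of RNA polymerase I, was listed at 0 in all KO libraries, against 0.516 ± 0.146 CPM in WT (adjusted p = 0.0254). It stood at 43.0 ± 14.5 CPM in HxD (adjusted p = 7.2e-05 against WT). Its KO and WT levels lay below the filter on low counts, which it passed through HxD. With only the 8 libraries of KO and WT fitted, edgeR called 0 genes in KO against WT. Eif4g3, a scaffold of translation initiation, stood at 88.9 ± 30.8 CPM in HxD and 2.62 ± 0.742 in WT (adjusted p = 8.5e-05). Snhg1, a snoRNA host transcript, stood at 0.138 ± 0.0395 CPM in HxD and 4.63 ± 0.891 in WT (adjusted p = 8.4e-05). Both also passed in KO against HxD, as did Polr1a. As for Rpl22 and Rps10, how the low values of Polr1a, Eif4g3 and Snhg1 arose was not tested. Ribosome assembly factors had 0 of 60 called in HxD against WT by edgeR, where 0.898% of all tested genes were. At an unadjusted p below 0.05 they had 1, where 4.05% of all tested genes were so. Their median was 0.12, with 51 of 60 above 0 (51.3% of all tested genes).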

How the data were processed

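The authors deposited estimated counts per gene symbol and library, without normalization, as 1 table of 21769 rows. Of its values 100% are whole. FastQC, Trim Galore 0.6.7, STAR 2.7.1a, SAMtools 1.9, StringTie 2.2.3 and the builds GRCm39 and mm10 are named, per the submitters' processing notes, without role. How reads were assigned, including strand, is not given in the sources used here. Rows of the 25 repeated symbols were left out.

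All 12 libraries entered 1 edgeR 4.0.16 quasi-likelihood fit (R 4.3.3, TMM, filterByExpr at 10 counts, robust, genotype only), with Benjamini-Hochberg adjustment over 11693 genes and a threshold of 0.05. SE is the log2 fold change divided by the root of F. Scores use log2(CPM + 0.5). Lengths are of the longest protein-coding GENCODE M21 transcript, or else the longest. DESeq2 1.42.0, limma-voom (limma 3.58.1), other scalings, filters, covariates and each library left out were alternatives. Scripts were tested on simulated data. The labels mention no molecular identifiers, so depth bounds counting error only.

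Members and lists were chosen with earlier results of these data known. Genes were named by a rule: any member called, the 5 smallest p in each direction per comparison, the 5 highest and lowest per kilobase, members with 0 and at least 100 counts within a genotype or 0 in all libraries, paralogs, and 10 reference members. From other lists up to 4 members with the smallest p could be named. Rps15a, Rpl22 and members named for non-overlap or spread, or for their start-site sequence, were chosen after their values were seen. Some genes that the rule selects are not reported here.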

Additional observations from a re-analysis of the deposited data

Results flagged for a closer look

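A single library stood apart from the other 3 of its genotype in 12 of the sets of values examined, by Dixon's criterion on the gap to the nearest of them, which flags about 1 in 20 sets by chance. In all, 141 sets were examined. Sets with 4 equal values, such as those of Rpl10l at 0, could not be flagged. Some genes, Rps10 among them, were named because a library jumped, so the rate of 1 in 20 does not hold for all sets. In KO, Rps10 was at 82.7 CPM in KO 3 and listed at 0 in the others, and Rps14 at 609 CPM in KO 2, with 324 to 361 in the others. Also in KO, Rps29 was low in KO 4 at 312 CPM, where the next library had 467, and so was Rps24 at 15.2 CPM, where the next had 20.0.

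In HxD, Rps12 was at 139 CPM in HxD 2, where the next library had 3.02, and Rps18 at 97.9 CPM in the same library, where the next had 39.9. Rps4l was at 1.43 CPM in HxD 2, where the next had 0.683. Rps16 was at 205 CPM in HxD 3, where the next had 97.2, and Rps24 at 17.1 CPM in HxD 1, where the next had 5.50. In WT, Rps18 was at 213 CPM in WT 3 (next 66.0), Rps4l at 6.73 CPM in WT 1 (next 0.608) and Rps27l low at 12.0 CPM in WT 2 (next 16.5).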

How the results depend on the processing

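Under the 14 settings other than leaving out a library, edgeR, DESeq2 and limma-voom called 0 ribosomal genes in each comparison. With 1 library left out, 1 was called, in KO against HxD without WT 4. The median of KO against WT ran from 0.15 (length trend removed) to 0.29 (library size only), that of KO against HxD from 0.14 to 0.33 and that of HxD against WT from -0.07 to -0.04. Leaving out 1 library gave 0.18 to 0.35, 0.22 to 0.38 and -0.14 to 0.02, and 0 to 1 calls in KO against HxD.

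Calls over all genes in KO against WT numbered 18, but 33 at an adjusted p below 0.1, 5 with the replicate block, 0 with the 8 libraries compared, 0 with limma-voom and 295 with DESeq2, and 12 to 35 with 1 library left out. DESeq2 called 173 genes in HxD against WT, where edgeR called 105, and 398 in KO against HxD, where edgeR called 119. The cause was not tested.

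Replicate numbers are shared between genotypes. Deviations of same-numbered libraries had correlations of -0.071 to 0.078. With 4 libraries per genotype this cannot settle whether the numbers pair libraries or mark a shared batch. With the replicate number as a block, 8 of 83 ribosomal genes were higher in KO against WT and 12 in KO against HxD at an unadjusted p below 0.05. With replicates 1 and 3 set apart from the rest as a covariate, these counts were 11 and 20. The share of all tested genes in those fits was not taken. Signs turned for Rps18 (0.39) and Rpl13a (0.01) without WT 3, Rpl13a (0.057) without KO 4, Rps4l (0.50) without WT 1, Rps12 (0.86) without HxD 2 and Rpl34 (0.017) without KO 3. Between the lowest and highest values with 1 library left out, Rps18 ran from -0.51 to 0.39, Rpl13a from -0.23 to 0.06, Rps4l from -1.78 to 0.50, Rps12 from -3.75 to 0.86 and Rpl34 from -0.53 to 0.02. Counts below about 30 per library, as for Rps12, Rps4l and Rps15a, leave such ratios open to counting error.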
